A study of Homo sapiens with 48 samples.

Results

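The enzymes that make serine, pass its carbon to folate and make asparagine were followed in cultures of HK-2, a human cell line immortalised from the epithelium of the renal proximal tubule, under exposure to kidney toxicants. Members were the probe sets whose only gene symbol in the platform annotation was PHGDH, PSAT1, PSPH, SHMT1, SHMT2, MTHFD1, MTHFD1L, MTHFD2, ALDH1L2 or ASNS. These were 22 of the 41091 probe sets with 1 symbol, for 10 genes, and 8 of the 10 genes were among the 11356 genes that could be tested. The study looked for signatures of toxicity across compounds and times, with 1 oligonucleotide array for each sample. Treated groups were Ra, Fk and CsA, each at 12 h and 48 h, and Nnm in a low and in a high dose, each at 24 h and 48 h. All groups grew in the same medium with EGF, hydrocortisone, insulin, transferrin and selenite, and controls received the vehicle alone. CsA had vehicle controls of its own at 12 h and 48 h, Fk and Ra shared theirs at 12 h and 48 h, and both Nnm doses shared theirs at 24 h and 48 h. This makes 3 sets and 16 groups with 3 arrays each, which the labels call biological replicates, and all groups come from 1 cell line. The labels name the compounds by these short names, and beyond low and high the sources used here give no doses.

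Serine is built from the glycolytic intermediate 3-phosphoglycerate by PHGDH, PSAT1 and PSPH in turn. The hydroxymethyltransferases SHMT1, in the cytosol, and SHMT2, in mitochondria, convert serine to glycine and load the released carbon onto tetrahydrofolate, which gives methylene-tetrahydrofolate, the carbon donor of thymidylate synthesis. The MTHFD enzymes interconvert this with formyl-tetrahydrofolate, the donor of purine synthesis, and formate, and the ALDH1L enzymes oxidise the formyl group to carbon dioxide. ASNS makes asparagine from aspartate and glutamine. Genes of serine synthesis, mitochondrial folate metabolism and ASNS are known targets of ATF4, the transcription factor of the amino acid and stress response.

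Levels are the deposited log2 values, given as mean ± SD over n = 3 arrays where they are averaged. They depend on the probes, so no gene's level is set against another's. Changes are log2 differences ± SE. A gene is called where limma's p, adjusted by Benjamini-Hochberg over the 11356 genes, is under 0.05. In RNA from whole cultures, fewer cells expressing a gene and less of its RNA per cell cannot be told apart. Nothing in the labels says how separate the cultures of a group were, so the p-values rest on the spread between these samples. For each gene that spread was pooled over all 16 groups, which were not equally spread. The SD of ASNS ran from 0.10 in CsA cells at 48 h to 1.37 in Ra cells at 48 h. The number of arrays limits the precision. Of 22 markers of renal epithelium 10 exceeded log2 4 in at least 3 arrays, with KRT8, KRT18, PAX8 and DPP4 at mean levels of 10.9 to 12.8, whereas the proximal tubule transport genes LRP2, CUBN, AQP1, SLC34A1 and SLC5A2 did not. Fibroblast genes that passed were COL1A1, DCN and LUM (3 of 7), the endothelial genes PECAM1 and CLDN5 (2 of 7) lay near the filter at 4.38 and 3.82, and 0 of 7 leukocyte genes passed, of which 5 had a probe set. One array stood apart. Ra 48 h replicate 2 had an upper quartile of 6.20, against 6.85 to 7.24 on the other arrays. Counts of calls and group orders that involve Ra at 48 h are therefore also given with each array centred on its median and without that array.

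Of the 22 probe sets 15 exceeded log2 4 in at least 3 arrays. SHMT1 and MTHFD1L were not among the tested genes. The 2 probe sets of SHMT1 alone reached at most 3.76, and the 2 of MTHFD1L alone at most 2.78. A further 5 probe sets list PHGDH, SHMT1 or MTHFD1L beside other symbols, lay above the filter on all 48 arrays and were not used, so nothing can be said here of the levels of SHMT1 and MTHFD1L. The remaining 8 genes were each represented by the probe set of highest mean. PHGDH, MTHFD1 and ASNS had 1 usable probe set each, PSAT1, PSPH and MTHFD2 had 2, and SHMT2 and ALDH1L2 had 3.

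ASNS and MTHFD1, whose differences with time in culture had opposite signs, are shown by the 250 bases before their start in RefSeq GRCh38.p14, 5′ to 3′ on the strand of the gene. Capitals mark the match to a searched motif. These motifs were TGATGNAA, the core of the element that ATF4 binds with C/EBP partners, and CACGTG, the E-box. Both strands were searched from 250 bases before to 50 after the start. The E-box is a palindrome, and the motifs share no overlap here.
ASNS, chr7:97872409-97872658, minus strand: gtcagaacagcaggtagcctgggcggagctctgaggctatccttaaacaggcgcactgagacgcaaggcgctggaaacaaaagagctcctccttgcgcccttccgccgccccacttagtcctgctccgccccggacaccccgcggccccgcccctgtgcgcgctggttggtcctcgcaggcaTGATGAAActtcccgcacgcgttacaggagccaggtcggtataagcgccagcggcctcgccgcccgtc
MTHFD1, chr14:64388103-64388352, plus strand: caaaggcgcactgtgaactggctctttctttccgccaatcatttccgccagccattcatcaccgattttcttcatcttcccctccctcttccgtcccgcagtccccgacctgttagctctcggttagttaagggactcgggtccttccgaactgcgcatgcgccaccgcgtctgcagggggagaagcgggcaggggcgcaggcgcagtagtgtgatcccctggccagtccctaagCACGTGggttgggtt
The ASNS match lies at -68 to -61 from the start, and the MTHFD1 match at -15 to -10. Windows were at hand for 5 of the 8 tested genes, and among them TGATGNAA was found for ASNS alone, in 1 of its 2 windows, and CACGTG for MTHFD1 alone, with neither in those of PHGDH, PSAT1 or MTHFD2. Of the members not tested, MTHFD1L held both motifs in some but not all of its windows, and SHMT1 held neither. Of 35116 RefSeq windows of this length 3.62% hold TGATGNAA and 7.26% hold CACGTG. A match is a description of letters, not a site in use.

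**Figure D1:**
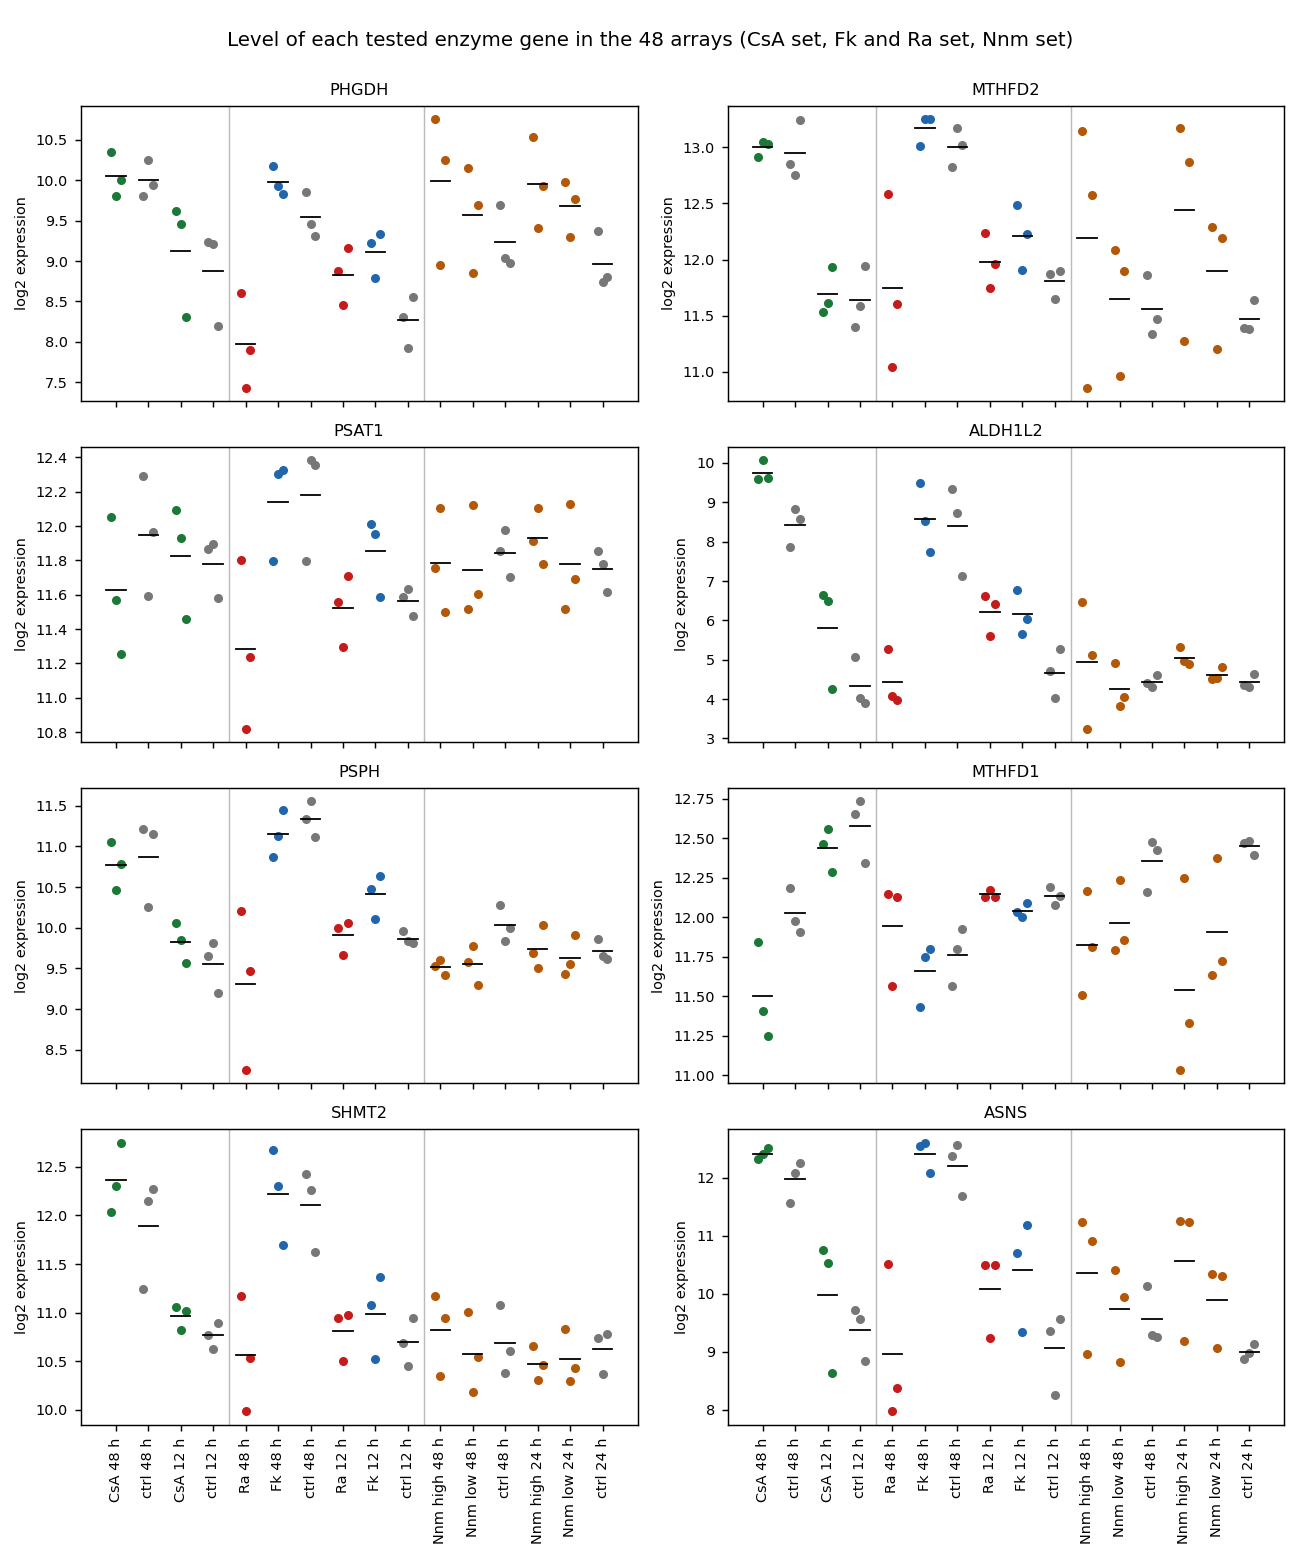
Log2 expression of the 8 tested genes on all 48 arrays. Each point is 1 array, each short line the mean of 3 arrays, grey points are vehicle controls, and grey vertical lines part the CsA set, the Fk and Ra set and the Nnm set. In the ASNS panel the Ra 48 h arrays lie at 7.98 to 10.52, while the 48 h controls of the first 2 sets lie at 11.57 to 12.56.

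In control cells of the CsA set and of the Fk and Ra set, 6 of the 8 genes rose between 12 h and 48 h: PHGDH, PSPH, SHMT2, MTHFD2, ALDH1L2 and ASNS. ALDH1L2 and ASNS moved furthest. PSAT1 and MTHFD1 were not called in either set. Over all genes tested, 13.7% were called in the CsA set, 6.12% higher and 7.56% lower, and 19.8% in the Fk and Ra set, 10.1% higher and 9.71% lower. The median difference of the 8 genes was 1.22 in the CsA set and 1.34 in the Fk and Ra set, against -0.01 and 0.02 over all genes. The 48 h and 12 h controls did not overlap for 7 of 8 genes in the CsA set, against 33.1% of all genes, and for 8 of 8 in the Fk and Ra set, against 47.7%.

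ALDH1L2, a mitochondrial enzyme that oxidises formyl-tetrahydrofolate and yields NADPH, stood at 7.87, 8.83 and 8.57 on the 48 h control arrays of the CsA set, against 5.08, 4.02 and 3.91 at 12 h. In the Fk and Ra set the 48 h controls were at 9.33, 8.74 and 7.12, against 4.70, 4.03 and 5.28 at 12 h. Every 48 h control lay above every 12 h control, and the 12 h levels were close to the filter of log2 4. The differences were 4.08 ± 0.59, or 17.0-fold (adjusted p = 4.48e-05), and 3.73 ± 0.59, or 13.2-fold (adjusted p = 5.59e-05).

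ASNS was at 11.57, 12.09 and 12.26 in the 48 h controls of the CsA set, against 9.72, 9.57 and 8.83 at 12 h, a difference of 2.60 ± 0.63 (adjusted p = 0.00545). The Fk and Ra set gave 12.38, 12.56 and 11.68 at 48 h, against 9.36, 8.25 and 9.56 at 12 h, a difference of 3.15 ± 0.63 (adjusted p = 0.000616). The times did not overlap in either set. In the serine pathway PSPH, the phosphatase of the last step, rose by 1.31 ± 0.29 in the CsA set (adjusted p = 0.00251) and by 1.47 ± 0.29 in the Fk and Ra set (adjusted p = 0.000498). PHGDH, the dehydrogenase of the first step, rose by 1.12 ± 0.38 (adjusted p = 0.0469) and 1.27 ± 0.38 (adjusted p = 0.0168). PSAT1, the aminotransferase between them, differed by 0.17 ± 0.23 (adjusted p = 0.711) and 0.62 ± 0.23 (adjusted p = 0.0594). PSAT1 was called in the Fk and Ra set with quantile normalization (0.0415) or only the groups compared (0.0482). PHGDH missed in the CsA set with no filter on low values (0.0831), only the arrays of the set (0.0753) or only the groups compared, so these genes of serine synthesis are not shown to differ from each other. SHMT2 rose by 1.13 ± 0.30 (adjusted p = 0.0106) and 1.41 ± 0.30 (adjusted p = 0.00109). MTHFD2, the mitochondrial dehydrogenase and cyclohydrolase that follows it, rose by 1.31 ± 0.41 (adjusted p = 0.0294) and 1.20 ± 0.41 (adjusted p = 0.0341).

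MTHFD1, the trifunctional cytosolic enzyme, had negative differences. Its 48 h controls were at 12.19, 11.97 and 11.91 in the CsA set, against 12.66, 12.73 and 12.34 at 12 h, and at 11.57, 11.80 and 11.93 in the Fk and Ra set, against 12.19, 12.08 and 12.14 at 12 h. The times did not overlap in either set. The differences of -0.55 ± 0.22 (adjusted p = 0.0835) and -0.37 ± 0.22 (adjusted p = 0.239) were not called. Replicate numbers paired the arrays of the CsA set, and with the replicate number as a block the difference there passed (adjusted p = 0.0114).

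Leaving out arrays cost some of these calls. PSPH, ALDH1L2 and ASNS stayed called in both sets whichever array was left out, as did SHMT2 in the Fk and Ra set. With only the groups compared in the fit, PSPH (limma's adjusted p = 0.0711) and SHMT2 (0.0836) missed in the CsA set. MTHFD2 missed in both sets whichever array was left out, with adjusted p up to 0.0941 in the CsA set and up to 0.109 in the Fk and Ra set. In the CsA set PHGDH missed without 12 h control replicate 3 (adjusted p = 0.279) and without 48 h control replicates 1, 2 or 3 (0.0612, 0.177 and 0.0780). SHMT2 missed there without 48 h control replicate 2 (0.0704) or 3 (0.0589), which left 3 called genes. Shares of all genes called without single control arrays are not given here, so this count is not set against them. In the Fk and Ra set PHGDH missed without 12 h control replicate 2 (0.0834) or 48 h control replicate 1 (0.0942), while PSAT1 was called without the last of these (0.0407). In the Nnm set, where the controls were taken at 48 h and 24 h, 0 of 8 genes were called by limma, against 0% of all genes, with 0 of the 8 and 664 of all genes at an unadjusted p under 0.05. ASNS had the largest difference there, 0.56 ± 0.63.

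After 48 h of Ra, 7 of the 8 genes fell below the controls, and MTHFD1 alone was not called. Over all genes tested 18.5% were called, 2.97% higher and 15.6% lower. The median difference of the 8 genes was -1.55, against -0.18 over all genes. With centred arrays the medians were -1.27 and 0.11, 6 of 8 fell and the share of all genes called lower was 7.03%. Calls over all genes divided into 337 higher and 1769 lower on the deposited values, and into 1140 higher and 798 lower with centred arrays. Groups did not overlap for 6 of the 8 genes, all lower in Ra, against 17.2% of all genes. Of the renal epithelium markers 0 of 10 were called here (1 higher with centred arrays), of the fibroblast markers 1 of 3 was lower (0 without Ra 48 h replicate 2), and their part in the result was not tested.

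The largest fall was that of ALDH1L2, which stood at 5.28, 4.07 and 3.97 on the Ra arrays, against 9.33, 8.74 and 7.12 on the control arrays. The highest Ra array was below the lowest control. It fell by 3.95 ± 0.59 on the log2 scale, or 15.5-fold (adjusted p = 7.98e-05), and by 3.67 ± 0.58 with centred arrays. ASNS stood at 10.52, 7.98 and 8.38 in Ra cells, against 12.38, 12.56 and 11.68 in control cells, again without overlap. Replicate 1 was the highest of the Ra arrays. ASNS fell by 3.25 ± 0.63, or 9.51-fold (adjusted p = 0.00071), and by 2.96 ± 0.60 with centred arrays.

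PSPH was at 10.20, 8.25 and 9.47 in Ra cells, against 11.33, 11.55 and 11.12 in control cells. The groups did not overlap, and the array with the low upper quartile was the lowest. PSPH fell by 2.03 ± 0.29, or 4.08-fold (adjusted p = 5.02e-05). PHGDH, the committed step of serine synthesis, was at 8.60, 7.43 and 7.90 in Ra cells, against 9.85, 9.46 and 9.31 in control cells. All Ra arrays lay below all controls, and PHGDH fell by 1.56 ± 0.38 (adjusted p = 0.00488). PSAT1 gave 11.80, 10.82 and 11.24 in Ra cells, against 11.80, 12.38 and 12.36 in control cells. Its groups met at 11.80, and it fell by 0.89 ± 0.23 (adjusted p = 0.00782).

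Among the mitochondrial folate enzymes SHMT2 was at 11.17, 9.99 and 10.53 in Ra cells, against 12.43, 12.27 and 11.63 in control cells. These did not overlap, and SHMT2 fell by 1.54 ± 0.30 (adjusted p = 0.000712). MTHFD2 was at 12.59, 11.04 and 11.60 in Ra cells, against 12.82, 13.17 and 13.02 in control cells. The highest Ra array lay just under the lowest control, and MTHFD2 fell by 1.26 ± 0.41 (adjusted p = 0.0281). MTHFD1 was at 12.14, 11.56 and 12.13 in Ra cells, against 11.57, 11.80 and 11.93 in control cells. Its groups overlapped, and its difference of 0.18 ± 0.22 had an interval from -0.26 to 0.62 (adjusted p = 0.618).

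Without Ra 48 h replicate 2, the array with the low upper quartile, 4 genes were called, all lower, against 3.47% of all genes called lower in the same fit (3.72% higher). These were PSPH (-1.50), SHMT2 (-1.25), ALDH1L2 (-3.77) and ASNS (-2.76), with limma's adjusted p between 0.000775 and 0.0143, and they held whichever array was left out. PHGDH (-1.29, adjusted p = 0.0564), PSAT1 (-0.66, 0.0976) and MTHFD2 (-0.91, 0.212) missed without it. PSAT1 also missed without control replicate 2 (0.0525), and MTHFD2 with centred arrays (0.0692), quantile normalization (0.0538) or no filter on low values (0.0511), and without Ra replicate 3 (0.0677), control replicate 1 (0.0638) or control replicate 2 (0.0971). With only the groups compared in the fit all 7 genes missed, those 4 included, with limma's adjusted p from 0.273 to 0.297. The second probe sets fell as well in a fit of single probe sets on the deposited values. Ra 48 h replicate 2 was included there, so that fit is no check on the calls lost without this array. The differences were -0.96 ± 0.22 for PSAT1, -1.85 ± 0.31 for PSPH, -1.78 ± 0.31 and -2.12 ± 0.36 for the further sets of SHMT2 and -1.69 ± 0.46 for MTHFD2, with adjusted p of at most 0.0104. The 2 minor ALDH1L2 probe sets lay under log2 4 in both groups.

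**Figure D2:**
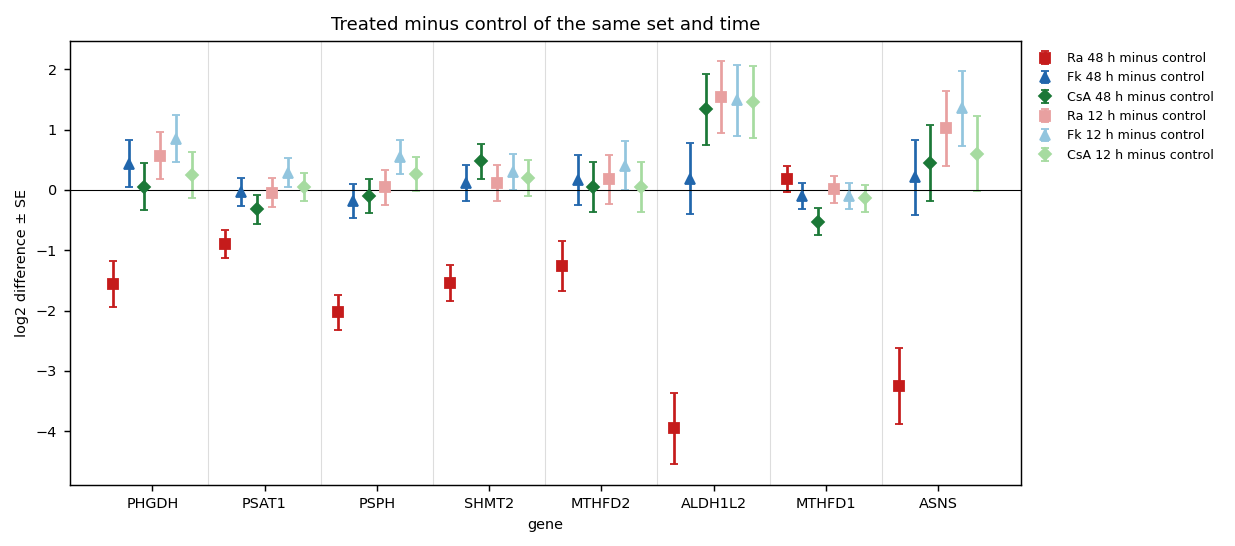
Log2 difference ± SE between treated and control arrays of the same set and time, for Ra, Fk and CsA at 48 h and at 12 h, with n = 3 arrays per group. At 48 h the Ra points of 7 genes lie below 0, from -0.89 for PSAT1 to -3.95 for ALDH1L2, while the Fk points lie between -0.18 and 0.44.

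Ra could be set against Fk directly at both times, over 2 pairs of groups. At 48 h 7 of 8 genes were lower in Ra than in Fk cells, against 15.2% of all genes. Calls over all genes divided into 241 higher and 1721 lower, or once centred into 1041 higher and 615 lower. ASNS was at 10.52, 7.98 and 8.38 in Ra cells, against 12.54, 12.61 and 12.09 in Fk cells, a difference of -3.46 ± 0.63 with a 95% interval from -4.73 to -2.19 (adjusted p = 0.000467). ALDH1L2 was at 5.28, 4.07 and 3.97 in Ra cells, against 9.49, 8.52 and 7.74 in Fk cells, a difference of -4.14 ± 0.59 (-5.35 to -2.93, adjusted p = 3.87e-05). The compounds did not overlap for either gene. Differences of the other called genes were -1.995 for PHGDH, -0.86 for PSAT1, -1.84 for PSPH, -1.66 for SHMT2 and -1.43 for MTHFD2, with adjusted p of at most 0.0148. MTHFD1 differed by 0.29 ± 0.22 (-0.16 to 0.73, adjusted p = 0.397). Without Ra 48 h replicate 2 PSAT1 (0.139) and MTHFD2 (0.153) were not called, which left 5 of 8, against 2.61% of all genes called lower. PSAT1 was not called either without Fk replicate 2 (0.0551) or with centred arrays (0.0936), where 5.42% of all genes were called lower. With only the groups compared in the fit all 7 genes missed, with limma's adjusted p from 0.291 to 0.343.

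At 12 h 0 of 8 genes differed between Ra and Fk by limma, against 0.00881% of all genes, with 0 of the 8 and 875 of all genes at an unadjusted p under 0.05. The intervals were wide. That of ASNS ran from -1.60 to 0.94 and that of ALDH1L2 from -1.15 to 1.27, so these data do not show that the compounds act alike at this time.

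Against controls at 12 h, 0 of 8 genes were called by limma for Ra (0.0704% of all genes), for Fk (0%) or for CsA (0%). At an unadjusted p under 0.05 there were 1 of 8 for Ra, 3 for Fk and 1 for CsA, and 879, 712 and 36 of all genes. Groups did not overlap for 1 of 8 genes for Ra (ALDH1L2), against 32.2% of all genes, and for 0 of 8 for CsA, against 6.34%. For Fk they did not overlap for 4 of 8, PHGDH, PSPH, MTHFD2 and ALDH1L2, all higher in Fk, against 15.8% of all genes (9.29% higher). ALDH1L2 had the largest difference under each compound. It was at 6.63, 5.60 and 6.41 in Ra cells and 6.78, 5.65 and 6.02 in Fk cells, against 4.70, 4.03 and 5.28 in their shared controls. In the CsA set it was at 6.64, 6.49 and 4.26 in CsA cells, against 5.08, 4.02 and 3.91 in controls. Every Ra and Fk array lay above every control, while CsA overlapped through replicate 3. The differences of 1.54 ± 0.59 for Ra (adjusted p = 0.451), 1.48 ± 0.59 for Fk (adjusted p = 0.725) and 1.46 ± 0.59 for CsA (adjusted p = 1) missed the test. ASNS differed by 1.02 ± 0.63 for Ra, 1.35 ± 0.63 for Fk and 0.60 ± 0.63 for CsA.

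The Ra difference at 48 h was lower than that at 12 h for 5 genes, tested as a difference of differences, against 3.31% of all genes. It changed by -5.50 ± 0.84 for ALDH1L2 (adjusted p = 0.00062), -4.27 ± 0.88 for ASNS (0.00919), -2.13 ± 0.54 for PHGDH (0.0242), -2.07 ± 0.40 for PSPH (0.00546) and -1.65 ± 0.42 for SHMT2 (0.0239). ALDH1L2, ASNS and PSPH were called whichever array was left out. With only the groups compared in the fit ALDH1L2 stayed called, while ASNS (limma's adjusted p = 0.0948) and PSPH (0.137) missed. PHGDH and SHMT2 both missed without Ra 48 h replicate 2 (0.101 and 0.108), where 0.467% of all genes were called lower. They also missed without control 12 h replicate 2 (0.0784 and 0.0749), Ra 12 h replicate 1 (0.0628 and 0.0646) or 3 (0.0605 and 0.0530), and control 48 h replicate 1 (0.0865 and 0.0902) or 2 (0.0607 and 0.0726). Without Ra 48 h replicate 1, PSAT1 (0.0238) and MTHFD2 (0.0307) were called too. With centred arrays SHMT2 missed (0.0563), and calls over all genes divided into 184 higher and 157 lower (1.38%), against 35 higher and 376 lower on the deposited values. The corresponding tests for Fk, CsA and either Nnm dose called 0 of 8 genes, with 0 of 8 at an unadjusted p under 0.05, against 0% of all genes for Fk, CsA and the low dose and 0.00881% for the high dose. Of all genes 337, 327, 219 and 721 had an unadjusted p under 0.05 in the tests for Fk, CsA, the low and the high dose.

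The 48 h and 12 h levels were then set against each other within each treatment, a comparison added after the values had been seen. In CsA cells 5 genes were higher at 48 h than at 12 h, against 13.1% of all genes, and MTHFD1 was lower, against 14.8%. ASNS was at 12.33, 12.40 and 12.52 in CsA cells at 48 h, against 10.76, 10.53 and 8.63 at 12 h, without overlap (2.44 ± 0.63, adjusted p = 0.00337). MTHFD1 was at 11.84, 11.41 and 11.25 at 48 h, against 12.47, 12.56 and 12.28 at 12 h, also without overlap (-0.94 ± 0.22, adjusted p = 0.00136). The other higher genes were PSPH (0.95), SHMT2 (1.40), MTHFD2 (1.31) and ALDH1L2 (3.96). Without CsA 12 h replicate 3 ASNS (0.0528) and PSPH (0.0669) missed, PSPH missed without CsA 48 h replicate 1 (0.0603), and MTHFD2 missed without CsA 12 h replicate 1 (0.0517). PHGDH, at 0.92, was called without that last array (0.0439) and with the replicate number as a block (0.0042).

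In Fk cells SHMT2 (1.23 ± 0.30, adjusted p = 0.00301), ALDH1L2 (2.43 ± 0.59, 0.00347) and ASNS (2.00 ± 0.63, 0.019) were higher at 48 h than at 12 h, which is 3 of 8 against 11.6% of all genes. Calls over all genes divided into 1312 higher and 1216 lower there, and with centred arrays into 1172 higher and 1722 lower. PSPH was called too with centred arrays (0.64, adjusted p = 0.0401), which makes 4 of 8 against 10.3%, and with quantile normalization (0.75, 0.0208). ASNS missed without Fk 12 h replicate 2 (0.125) and without Fk 48 h replicate 1 (0.0710) or 2 (0.0609). With only the groups compared in the fit SHMT2 (limma's adjusted p = 0.0733) and ASNS (0.0598) missed, while MTHFD2 was called (0.0441). A fit of only the arrays of the set also called PHGDH (0.0461) and MTHFD2 (0.0334). In Ra cells 0 of 8 genes were called by limma, against 1.23% of all genes, with 3 of 8 at an unadjusted p under 0.05 and 2051 of all genes. All 8 differences were negative there, from -0.20 for MTHFD1 to -1.77 ± 0.59 for ALDH1L2 (adjusted p = 0.104), and the median of all genes was -0.20. Over all genes 7 were called higher and 133 lower, which centring turned into 40 higher and 45 lower. With centred arrays 4 of the 8 were negative, ALDH1L2 still lowest at -1.50. Without Ra 48 h replicate 1, PSPH (-1.05, 0.0214) and ALDH1L2 (-2.19, 0.0387) were called lower. Without replicate 2 there, 0 of 8 were called, against 0.0793% of all genes.

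**Figure D3:**
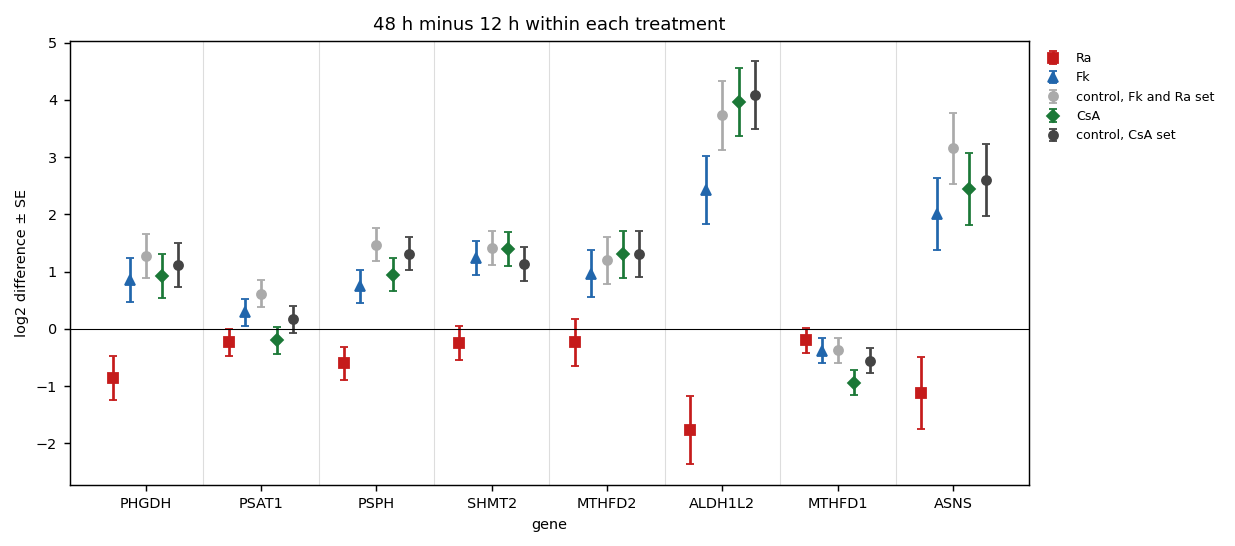
Log2 difference ± SE between 48 h and 12 h within Ra, Fk and CsA cells and within the controls of both sets, with n = 3 arrays per group. The ASNS point of Ra lies at -1.12, and those of Fk, CsA and both control series lie between 2.00 and 3.15.

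Ra cells at 48 h were also set against controls at 12 h. By limma 0 of 8 genes were called, against 10.9% of all genes, with 0 of 8 at an unadjusted p under 0.05 and 2970 of all genes. Calls over all genes divided into 150 higher and 1092 lower, or once centred into 393 higher and 315 lower. The difference was -0.10 for ASNS with an interval from -1.37 to 1.17, and -0.23 for ALDH1L2 with an interval from -1.43 to 0.98. PSPH had the lowest difference, -0.56 (-1.14 to 0.02), and was called without Ra 48 h replicate 1 (-1.01, adjusted p = 0.0120). Without replicate 2, 0 of 8 were called, against 1.85% of all genes. With centred arrays 3 of the 8 differences were negative, against 8 of 8 on the deposited values. Intervals of this width do not show that the levels were equal.

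At 48 h no gene of this group was called for Fk or for CsA. For Fk 0 of 8 were called, against 0% of all genes, with 0 of 8 at an unadjusted p under 0.05 and 311 of all genes, and no gene was free of overlap with the controls, against 10.1% of all genes. Fk and Ra were measured against the same controls, where ASNS differed by -3.25 for Ra and 0.21 (-1.06 to 1.48) for Fk, and ALDH1L2 by -3.95 for Ra and 0.19 (-1.02 to 1.40) for Fk. For CsA 0 of 8 were called, against 1.02% of all genes (0.722% lower), with 2 of 8 and 1352 of all genes at an unadjusted p under 0.05. Groups did not overlap for ALDH1L2, ASNS and MTHFD1, or 3 of 8 genes, against 14.2% of all genes.

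ALDH1L2 was at 9.58, 10.07 and 9.62 in CsA cells, against 7.87, 8.83 and 8.57 in control cells, all treated arrays above all controls, and the difference of 1.33 ± 0.59 missed the test (adjusted p = 0.347). MTHFD1 was at 11.84, 11.41 and 11.25 in CsA cells, against 12.19, 11.97 and 11.91 in control cells, all lower, with a difference of -0.52 ± 0.22 (adjusted p = 0.294). ALDH1L2 has 2 minor probe sets, which exceeded log2 4 on 3 arrays each. The first stood at 4.37 ± 0.19 in CsA cells at 48 h, against 2.89 ± 0.14 in control cells. The second stood at 4.89 ± 1.01 in CsA cells, against 2.88 ± 0.61. Since they entered the fit through the group in which they were high, their difference is no support for a rise. With the mean of all its probe sets ALDH1L2 was called (1.61 ± 0.28, adjusted p = 0.00452), and that mean includes them.

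In the Nnm set the differences had both signs. At the high dose for 24 h MTHFD1 fell, the only one of 8 called, against 23.1% of all genes, 10.5% higher and 12.5% lower. It was at 11.03, 12.25 and 11.33 in high-dose cells and 11.64, 12.37 and 11.72 in low-dose cells, against 12.47, 12.48 and 12.39 in control cells. All arrays of both doses lay below all controls, and replicate 2 was the highest at each dose. MTHFD1 fell by 0.91 ± 0.22 at the high dose (adjusted p = 0.00311) and differed by -0.54 ± 0.22 at the low dose (adjusted p = 0.119). The high-dose call was lost without high-dose replicate 1 (-0.66, adjusted p = 0.0661) and with only the groups compared in the fit (0.113).

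PHGDH, MTHFD2 and ASNS had positive differences at the high dose for 24 h. ASNS was at 11.26, 9.19 and 11.24 in high-dose cells, against 8.88, 8.98 and 9.13 in control cells, and replicate 2 was the one treated array near the controls. The difference was 1.57 ± 0.63 (adjusted p = 0.0659). MTHFD2 was at 13.17, 11.27 and 12.87, against 11.39, 11.38 and 11.64 in control cells, with replicate 2 below the controls and a difference of 0.96 ± 0.41 (adjusted p = 0.0842). PHGDH was at 10.53, 9.41 and 9.93, against 9.37, 8.74 and 8.80 in control cells, without overlap, and its difference of 0.99 ± 0.38 also missed (adjusted p = 0.0584). PHGDH was called with centred arrays (0.0438) and with quantile normalization (0.0431), which also called ASNS (0.0467). Groups did not overlap for 4 of 8 genes, namely PHGDH, MTHFD1, ALDH1L2 and ASNS, against 38% of all genes. Without high-dose replicate 2 PHGDH (1.26, adjusted p = 0.0193), MTHFD2 (1.55, 0.00342) and ASNS (2.25, 0.00787) were called higher, against 16.7% of all genes.

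Arrays of the Nnm set were paired by replicate number. With the number as a block, 4 of 8 genes were called at the high dose for 24 h: MTHFD1 lower, and PHGDH (0.99, adjusted p = 0.00321), MTHFD2 (0.96, 0.00953) and ASNS (1.57, 0.0148) higher. Of all genes 33.7% were called with the block, 15.6% higher and 18.1% lower. Within numbers 1, 2 and 3 the ASNS difference was 2.38, 0.21 and 2.11, and that of MTHFD2 was 1.78, -0.11 and 1.22. MTHFD1 differed by -1.44, -0.24 and -1.06. Number 2 thus lay nearest to 0 for each of these genes.

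Other Nnm groups gave no call without the block. At the low dose 0 of 8 genes were called by limma at 24 h, against 8.29% of all genes (3.58% higher, 4.71% lower), and 0 of 8 at 48 h, against 5.22% (2.77% higher, 2.45% lower). At the high dose 0 of 8 were called at 48 h, against 16.8% (8.89% higher, 7.88% lower). At an unadjusted p under 0.05 these comparisons held 1, 0 and 1 of the 8 and 2691, 2272 and 3476 of all genes. With the block PHGDH was higher at the low dose for 24 h (0.71, adjusted p = 0.0448) and the high dose for 48 h (0.75, 0.0247), and MTHFD1 was lower in both (-0.54, 0.0179, and -0.53, 0.0141). With the block 18% of all genes were called in the first and 27.4% in the second. Without replicate 2 of the treated group, MTHFD1 was called at the low dose for 24 h (-0.77, 0.0261), and PHGDH (1.27, 0.0152), MTHFD1 (-0.70, 0.0290) and MTHFD2 (1.31, 0.0121) at the high dose for 48 h, against 11.5% and 25.8% of all genes. High against low dose called 0 of 8 by limma at 24 h (0.00881% of all genes) and 0 of 8 at 48 h (0.0176%), with 0 of 8 at an unadjusted p under 0.05 at either time and 808 and 398 of all genes. Without high-dose replicate 2 the 24 h dose difference of MTHFD1 was called (-0.73, 0.0218), against 9.24% of all genes. ALDH1L2 lay between 3.24 and 6.47 on all Nnm set arrays, near the filter.

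**Figure D4:**
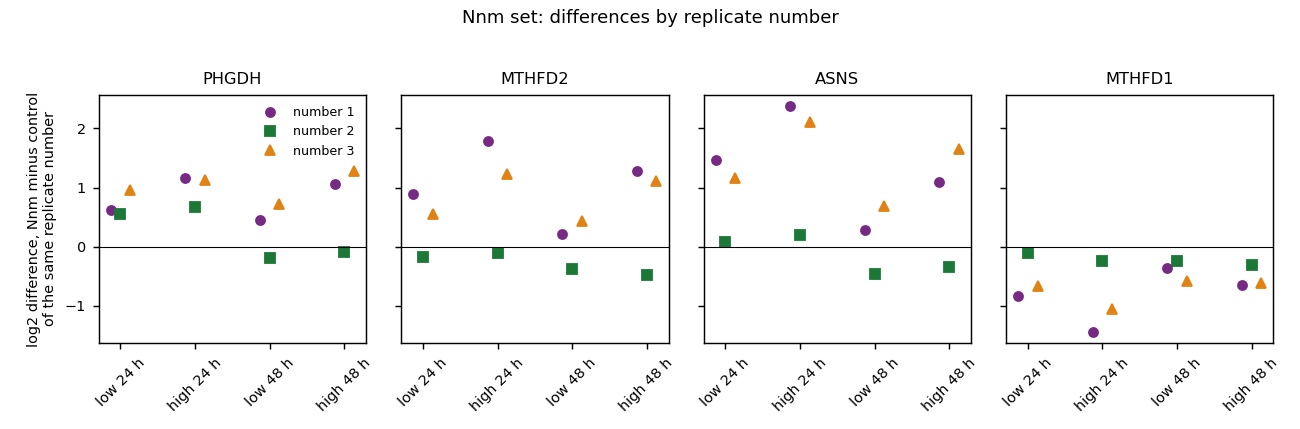
Log2 difference between each Nnm array and the control array of the same replicate number, at the low and high dose for 24 h and 48 h, for PHGDH, MTHFD2, ASNS and MTHFD1. For ASNS at the high dose and 24 h numbers 1 and 3 lie at 2.38 and 2.11 and number 2 at 0.21.

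Across the 16 groups ASNS was highest in CsA cells at 48 h (12.42 ± 0.10), Fk cells at 48 h (12.41 ± 0.28) and the 48 h controls of their sets, and low in Ra cells at 48 h (8.96 ± 1.37) and the 24 h Nnm controls (9.00 ± 0.13). The 24 h Nnm controls were lowest with centred arrays (8.95, against 9.28 in Ra cells at 48 h) and without Ra 48 h replicate 2 (9.00 and 9.45). ALDH1L2 was highest in CsA cells at 48 h (9.76 ± 0.27) and lowest in low-dose Nnm cells at 48 h (4.26 ± 0.58). MTHFD1 had another order, with CsA cells at 48 h lowest (11.50 ± 0.31; with centred arrays, high-dose Nnm cells at 24 h, 11.47) and the 12 h controls of the CsA set highest (12.58 ± 0.21). PHGDH was lowest in Ra cells at 48 h, at 7.98 ± 0.59, also with centred arrays (8.30) and without Ra 48 h replicate 2 (8.25). The 12 h controls of the Fk and Ra set lay close above, at 8.36 and 8.27 under these 2 settings. PSAT1 (11.29 ± 0.49) and PSPH (9.31 ± 0.98) were lowest in Ra cells at 48 h on the deposited values. With centred arrays PSAT1 was lowest in Ra cells at 12 h (11.57, against 11.61 at 48 h), and PSPH in high-dose Nnm cells at 48 h (9.42, against 9.63 in Ra cells at 48 h). Without Ra 48 h replicate 2 PSAT1 stood at 11.52 in Ra cells at 48 h, level with Ra cells at 12 h (11.52). PSPH then stood at 9.83 in Ra cells at 48 h, above 7 other groups. Of the 120 steps between neighbours in these 8 orders 9 exceeded the larger SD of the pair. The widest was in ALDH1L2, where the 4 highest groups, all at 48 h, lay 2.18 or more above the next. The titles of the CsA set alone carry the note lab 3, and in orders across sets the set and the compound cannot be told apart.

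As a description over the 48 arrays, with the mean of each set removed, ASNS followed the mean of the other 7 genes with r = 0.90, PSPH with 0.88, ALDH1L2 with 0.83 and PHGDH with 0.82. PSAT1 had 0.49 and MTHFD1 -0.55. These arrays share controls, times and replicate numbers. Deposited values were used with Ra 48 h replicate 2 included, and no r was computed with centred arrays or without that array. Genes most like the mean of the 8 by the same measure were CARS1, INHBE, SESN2, XBP1 and ANK2, each at 0.92, YARS1 at 0.91 and CTH and GARS1, each at 0.90. For single members the most like genes were PCK2 for SHMT2 (0.97), XPOT for MTHFD2 (0.96), CTH for ASNS (0.95) and RFC2 for MTHFD1 (0.93). The others were GATAD1 for PHGDH (0.88), AFG3L2 for PSAT1 (0.79), HEATR5B for PSPH (0.86) and AARS1 for ALDH1L2 (0.92).

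Other genes around these pathways were counted in the same fit. These counts stand against the shares of all genes called. With time in the controls 6.12% rose and 7.56% fell in the CsA set, and 10.1% rose and 9.71% fell in the Fk and Ra set. For Ra at 48 h 2.97% were higher and 15.6% lower. Centring made these shares 10% and 7.03%, and leaving out replicate 2 made them 3.72% and 3.47%. For CsA at 48 h 0.299% were higher and 0.722% lower. At the high Nnm dose for 24 h 10.5% were higher and 12.5% lower, or 11.9% and 14.2% once arrays were centred. Regulators known for this gene group, 15 measured of 16, had 7 called higher and 1 lower in 48 h against 12 h controls of the CsA set, and 9 higher and 1 lower in the Fk and Ra set. DDIT3, which encodes the stress factor CHOP, rose by 5.39 and 4.97, TRIB3, a pseudokinase induced by it, by 2.39 and 1.96, and ATF4 by 1.53 in the CsA set. The median of the 15 was 1.02 and 1.01. After 48 h of Ra 7 of the 15 were lower and 0 higher, with a median of -1.03, among them CEBPG (-2.43), TRIB3 (-1.94) and the kinase gene EIF2AK3 (-1.45), and with centred arrays 5 were lower and 1 higher. Leaving out Ra 48 h replicate 2 gave 4 lower, these 3 and DDIT3, and 0 higher. At the high Nnm dose for 24 h 3 of 15 were higher (4 with centred arrays) and 0 lower, against 10.5% of all genes higher, with DDIT3 at 2.18, ATF4 at 0.76 and EIF2AK4 at 0.79.

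Of 12 measured genes of serine and glycine use and uptake 3 rose in the CsA set controls and 4 in the Fk and Ra set controls, with none lower on the deposited values and 1 lower in each with centred arrays. CTH, which makes cysteine from serine-derived cystathionine, rose by 3.31 and 4.50. After 48 h of Ra 3 of the 12 fell (2 with centred arrays), with CTH at -3.90, the synthase CBS at -1.31 and the glycine transporter SLC6A9 at -1.62, the last with both groups under log2 4 on average. CTH alone was called without Ra 48 h replicate 2 (-3.07, adjusted p = 0.0187).

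Of 17 other measured folate and one-carbon genes 0 rose and 3 fell with time in each control set (1 and 4, and 1 and 3, with centred arrays), among them TYMS, the thymidylate synthase, by 0.99 and 0.98, and GLDC, of the glycine cleavage system, by 2.06 and 1.52. TYMS rose in Ra cells at 48 h (0.87, adjusted p = 0.0205), where 1 of 17 was higher and 3 lower (once centred 2 and 1, without Ra 48 h replicate 2 they were 1 and 1), near the 15.6% of all genes called lower. MTHFD2L, the mitochondrial relative of MTHFD2, fell there by 2.12. TYMS was the 1 of 17 called at 48 h of CsA, where it fell by 1.29. At the high Nnm dose for 24 h 6 of 17 were lower (7 with centred arrays) and 1 higher, with the folate carrier SLC19A1 at -2.03.

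Of 12 measured genes of purine synthesis 0 were called after Ra at 48 h (2 higher with centred arrays, 0 without Ra 48 h replicate 2). At the high Nnm dose for 24 h 6 fell (7 with centred arrays), among them PFAS (-1.83), GART (-1.07) and ATIC (-0.80). In the controls 2 fell with time in the CsA set and 4 in the Fk and Ra set, with PRPS1, which makes the ribose donor, at -1.16 and -1.47.

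Of 7 glycolytic genes around 3-phosphoglycerate 0 rose and 4 fell with time in the CsA set controls, and 1 rose and 3 fell in the Fk and Ra set controls. PGAM1 fell by 0.89 and 0.63. PKM fell by 0.98 and 0.69. Of 13 measured aspartate, glutamate and proline enzymes 1 rose and 1 fell in Ra cells at 48 h (4 and 1 with centred arrays, 2 and 1 without Ra 48 h replicate 2). GLUL, the glutamine synthetase, rose by 0.82 there, and PYCR1, of proline synthesis, fell by 1.31. GLUL also rose at the high Nnm dose for 24 h (1.14), where 2 of the 13 were higher and 5 lower.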

How the data were processed

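The authors deposited 1 table of log2 expression values for 54675 probe sets on 48 arrays. The submitters' processing notes name GCRMA, without a version. Per the labels' protocols, cells were treated near confluence and biotin-labelled cRNA from total RNA was hybridised. These log2 values, from 0.721 to 16.1, were used as deposited. After 62 control probe sets were set aside, the platform annotation gave 1 symbol for 41091, several for 1801, and did not list 11721. Of the 41091, 41037 matched RefSeq by gene number, which changed 0 symbols. Probe sets above log2 4 in at least 3 arrays (20960) were kept, and for each of 11356 genes the one with the highest mean was used. In R 4.3.3, limma 3.58.1 fitted 1 mean per group over all 48 arrays, two-sided, for 22 comparisons and 4 added later, with empirical Bayes moderation and Benjamini-Hochberg adjustment. The fit was tried on simulated data with independent noise and, for each gene, the same SD in all groups. That setting lacks the pairing and the unequal spread of these arrays, so it cannot show how the fit handles them.

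No 2 arrays were identical, and arrays of a group correlated at 0.941 to 0.994. Deviations from the group means were correlated between same-numbered arrays, and pairs with r over 0.1 were counted. These were all 18 pairs of the CsA set (r = 0.243 to 0.926) and all 45 of the Nnm set (0.138 to 0.786). In the Fk and Ra set they were 19 of 45, and r over all 45 ran from -0.178 to 0.759. Its mean was 0.104, against -0.051 between arrays of other numbers, and the Fk and Ra set was not taken as paired. Named genes are all members, up to 3 called genes of each pathway list in a comparison by lowest p, the 8 genes most like the members' mean profile and the gene most like each member. The members and lists were chosen with earlier results of these data known. Alternatives tried were centring, quantile normalization, other filters, all probe sets averaged, the replicate block, smaller fits and each array left out.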

Additional observations from a re-analysis of the deposited data

Results flagged for a closer look

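The difference between Ra and control cells was not the same at 48 h and 12 h for 5 genes, by limma's test of the difference of differences (3 arrays in each of 4 groups). It changed by -2.13 for PHGDH (-1.56 at 48 h, 0.57 at 12 h), by -2.07 for PSPH (-2.03 and 0.04), by -1.65 for SHMT2 (-1.54 and 0.11), by -5.50 for ALDH1L2 (-3.95 and 1.54) and by -4.27 for ASNS (-3.25 and 1.02). None of the 12 h differences was called.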

How the results depend on the processing

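Of 26 comparisons 14 kept their count of called genes within 1.5 times under every alternative other than those added after seeing the data, and 0 results reversed. With the replicate number as a block, the count of called genes became 2 at the low Nnm dose for 24 h, 4 at the high dose for 24 h, 2 at the high dose for 48 h, 6 for Fk at 48 h against 12 h and 2 for Ra at 48 h against 12 h. The last 2 lie in the set not taken as paired, and in 21 of 26 comparisons the block left the count within 1.5 times. With only the groups compared in the fit, it became 0 for Ra at 48 h, 0 for Ra against Fk at 48 h, 0 at the high Nnm dose for 24 h, 3 for the CsA set controls and 1 for the Ra difference at 48 h against 12 h. The Fk and Ra set controls kept their 6 calls under this setting, and PSAT1 was called too (limma's adjusted p = 0.0482). With only the arrays of the set the count became 2 for the Ra difference at 48 h against 12 h and 5 for Fk at 48 h against 12 h. At the high Nnm dose for 24 h it was 2 with centred arrays and 3 with quantile normalization. The mean of all probe sets gave 1 for CsA at 48 h. Centred arrays without Ra 48 h replicate 2, chosen after seeing the data, gave 3 for the Ra difference at 48 h against 12 h. Leaving out each array in turn gave 4 to 7 for Ra at 48 h, 5 to 7 for Ra against Fk at 48 h, 3 to 7 for the Ra difference at 48 h against 12 h, 3 to 5 for the CsA set controls and 4 to 5 for the Fk and Ra set controls. It gave 0 to 1 at the low Nnm dose for 24 h, 0 to 4 at the high dose for 24 h, 0 to 3 at the high dose for 48 h and 0 to 1 for high against low dose at 24 h. For the comparisons added after seeing the data it gave 4 to 6 for CsA and 2 to 3 for Fk at 48 h against 12 h, 0 to 2 for Ra at 48 h against 12 h and 0 to 1 for Ra at 48 h against the 12 h controls. The cause of these changes was not tested. Except where stated above, shares of all genes called under these settings are not given. These counts are therefore not set against all genes. Differences of ALDH1L2 from groups near log2 4 are limited by signal over background.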
